A study of Mus musculus with 24 samples.

Results

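Genes of receptors for immunoglobulin (6 in all) were followed across 24 RNA-sequencing libraries of sorted mouse blood monocytes: *Fcgr1*, *Fcgr2b*, *Fcgr3*, *Fcgr4*, *Fcer1g* and *Fcgrt*. They were taken by gene symbol from a table of 53715 genes, and each of the 6 symbols occurred once. All 6 reached 50 normalized counts in at least 1 library and were among the 11230 genes tested.

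Cells came from peripheral blood (PB) of C57BL/6 mice aged 8 to 10 weeks. The *N2ΔMy* mice carry floxed *Notch2* alleles and Cre recombinase in the *Lyz2* locus, which is active in myeloid cells, and wt mice are littermate controls. All 6 groups were sorted by GFP from a *Cx3cr1* GFP reporter allele. Mice received either Sham cream (Vaseline) or 50 mg per day of Aldara, a cream with 5% imiquimod (IMQ), a TLR7 agonist, on depilated skin and were killed on day 5. The 6 groups of 4 libraries were Ly6Chi cells of wt and *N2ΔMy* mice after Sham cream, Ly6Chi cells of both genotypes after IMQ, and Ly6Clo cells of both genotypes after IMQ. No Ly6Clo group after Sham cream was analysed. The labels and the results text of the study call the controls Sham, whereas its methods on RNA isolation call them untreated. Both subsets were sorted as lineage-negative CD11b+ GFP+ CD115+ cells without MHC-II, and Fc receptors were blocked on the cells with an antibody to CD16/CD32 before staining. The products of *Fcgr2b* and *Fcgr3* were thus bound by the blocking reagent, but none of the 6 receptors was used to choose cells.

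Receptors for IgG bind antibody-coated particles and immune complexes on phagocytes. Activating receptors signal through an ITAM, a tyrosine motif phosphorylated by Src family kinases and then bound by Syk, whereas the inhibitory receptor carries an ITIM that recruits phosphatases. *Fcgr1* encodes FcγRI (CD64), the high-affinity receptor for IgG. *Fcgr3* encodes FcγRIII (CD16), an activating receptor of low affinity, and *Fcgr4* encodes FcγRIV, an activating receptor known from mouse nonclassical monocytes and neutrophils. *Fcgr2b* encodes FcγRIIB (CD32), the only inhibitory member of the group. *Fcer1g* encodes the common γ chain, which holds the ITAM and with which FcγRI, FcγRIII and FcγRIV assemble. *Fcgrt* encodes the heavy chain of the neonatal Fc receptor, which pairs with β2-microglobulin in endosomes and returns IgG to the surface.

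In the deposited table (GRCm38), *Fcgr2b* (ENSMUSG00000026656.15) lies on chromosome 1 from 170958617 to 170976547 on the minus strand. *Fcgr4* (ENSMUSG00000059089.4) lies beside it on the plus strand from 171018920 to 171029761, *Fcgr3* (ENSMUSG00000059498.13) from 171051174 to 171064935 on the minus strand and *Fcer1g* (ENSMUSG00000058715.11) from 171229572 to 171234365 on the minus strand. *Fcgr1* (ENSMUSG00000015947.10) lies on chromosome 3 from 96282909 to 96293969 and *Fcgrt* (ENSMUSG00000003420.8) on chromosome 7 from 45092990 to 45103851, both on the minus strand. The only gene whose exons overlap those of a member is RP24-65D16.3, opposite to *Fcgr2b* over 155 bases, with at most 3 normalized counts in any library.

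The genes *Fcgr2b* and *Fcgr3* are close relatives and share sequence that reads of 75 bases cannot tell apart. In GENCODE transcripts of release M21 (GRCm38), 94 of the 1733 different 75-base windows of *Fcgr3* (5.42%) also occur in *Fcgr2b*. Of 5768 windows of *Fcgr2b*, 313 (5.43%) occur in at least 1 of 70 other genes, most often in *Cplx2* (123 windows). Windows of *Fcgr1*, *Fcgr4*, *Fcer1g* and *Fcgrt* had no match in another gene. How reads with several matches were counted is not given in the sources used here. Small changes of *Fcgr2b* and *Fcgr3* are therefore uncertain in which of both genes they belong to. Those of *Fcgr2b* may also belong to the other genes that share its windows. The windows shared by *Fcgr3* and *Fcgr2b* form 2 stretches inside the coding part of both transcripts, separated by 1 base that differs. They are bases 313 to 441 and 443 to 555 of the *Fcgr3* transcript used, counted from 1 at its 5′ end. They are shown because a read that lies wholly within either one fits both genes.
Fcgr3 and Fcgr2b, first stretch: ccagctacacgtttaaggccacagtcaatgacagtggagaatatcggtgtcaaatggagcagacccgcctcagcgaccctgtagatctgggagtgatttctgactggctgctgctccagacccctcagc
Fcgr3 and Fcgr2b, second stretch: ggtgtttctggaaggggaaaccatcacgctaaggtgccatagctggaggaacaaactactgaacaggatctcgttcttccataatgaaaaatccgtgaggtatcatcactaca

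The start regions of *Fcgr1* and *Fcgr4* are shown because these were the 2 members called after IMQ and between genotypes. The sequences are RefSeq promoter windows (GRCm38.p6), read 5′ to 3′ on the strand of the gene up to the start of the gene in the deposited table, and capitals mark motif matches. *Fcgr1* covers chr3:96293970-96294219 on the minus strand. *Fcgr4* covers chr1:171018676-171018919 on the plus strand.
Fcgr1: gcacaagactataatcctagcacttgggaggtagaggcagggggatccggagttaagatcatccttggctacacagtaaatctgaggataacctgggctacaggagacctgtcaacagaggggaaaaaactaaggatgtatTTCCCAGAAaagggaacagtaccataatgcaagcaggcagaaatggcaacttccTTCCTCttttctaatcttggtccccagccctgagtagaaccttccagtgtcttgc
Fcgr4: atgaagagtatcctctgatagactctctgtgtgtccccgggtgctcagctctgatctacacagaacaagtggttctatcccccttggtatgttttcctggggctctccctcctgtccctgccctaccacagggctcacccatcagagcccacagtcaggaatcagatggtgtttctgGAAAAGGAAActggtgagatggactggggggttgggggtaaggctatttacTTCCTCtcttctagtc

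A set of 5 motifs was searched on both strands in windows from 250 bases before to 50 after the RefSeq start, of which the table holds 32851. GAGGAA (PU.1 type) was found in *Fcgr1*, *Fcgr4* and both windows of *Fcgr3*, and in 28.3% of all windows. The interferon-response motif GAAANNGAAA was found in *Fcgr4* among the members and in 3.44% of all windows. The STAT motif TTCNNNGAA was found in *Fcgr1* and in 8.30% of all windows, and TGGGAA (RBPJ type) overlaps it on the other strand and was found in 25.6% of all windows. AAGGTCA (NR4A type) was found in none of the windows of the members and in 4.72% of all windows. The windows of *Fcgr2b*, *Fcer1g* and *Fcgrt* held no match to any of the 5 motifs. A match describes letters in a window and is not a measured binding site.

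Reads per library, inferred from the steps between the rounded values, lay between 9522452 and 19759572. Replicates 1 and 2 of every group form the first library series (14579375 to 19759572 reads) and replicates 3 and 4 the second (9522452 to 15593771). The labels do not tie replicates to single animals, so p-values measure the spread between these libraries. *Notch2* fell in *N2ΔMy* cells and was not lost: wt Ly6Chi cells after Sham cream had 15211 ± 1135 normalized counts and *N2ΔMy* cells 9298 ± 669 (SD, n = 4 each), with 13908 ± 955 and 7616 ± 491 in Ly6Chi cells after IMQ, and 17766 ± 1799 and 10752.5 ± 950 (SD, n = 4 each) in Ly6Clo cells. The summed markers of Ly6Chi cells (*Ly6c2*, *Ccr2*, *Vcan*, *F13a1*) lay between 50251 and 75860 in the Ly6Chi libraries, between 476 and 1686 in wt Ly6Clo and between 6923 and 9869 in *N2ΔMy* Ly6Clo libraries. The summed markers of Ly6Clo cells (*Nr4a1*, *Ace*, *Treml4*, *Spn*, *Cd274*, *Itgal*) lay between 18990 and 41264, between 129057 and 149829 and between 73600 and 83228, respectively. The labelled subsets thus carried their own markers, and those of *N2ΔMy* Ly6Clo libraries lay between the other groups for both lists. Markers of T and NK cells summed to at most 73 in any library, and *Fcer1a*, the IgE-binding chain of mast cells and basophils, was at or near 0.

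**Figure D1:**
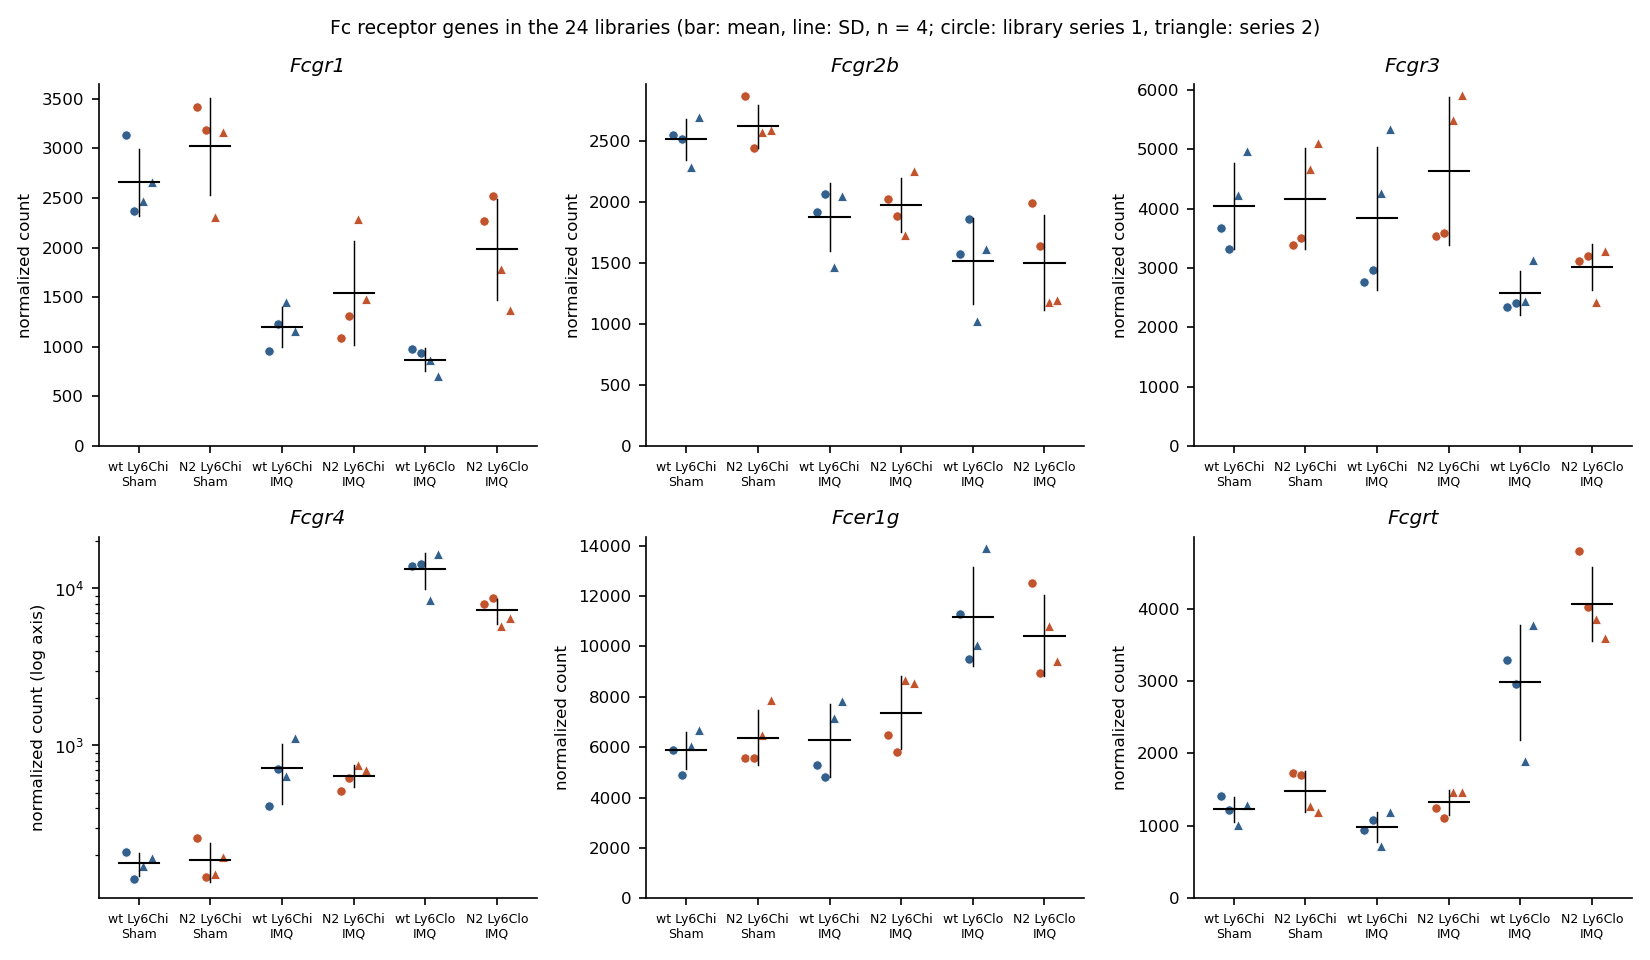
Normalized counts of the 6 genes (vertical axes, log axis for Fcgr4) in each library of the 6 groups (horizontal axis), wt in blue and N2ΔMy (labelled N2) in orange; horizontal bars are means and vertical lines SDs of 4 libraries, circles are library series 1 and triangles series 2. Fcgr4 spans from 140 to 16645 normalized counts, and the Fcgr1 libraries of N2ΔMy Ly6Clo cells lie above all those of wt Ly6Clo cells.

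The 6 genes differed widely in how far their level moved between groups. From the lowest to the highest group mean, the normalized count of *Fcgr4* changed 75.1-fold, that of *Fcgrt* 4.13-fold and that of *Fcgr1* 3.47-fold. *Fcer1g* changed 1.91-fold, *Fcgr3* 1.79-fold and *Fcgr2b* 1.74-fold. For *Fcgr4*, 3 levels did not overlap: Ly6Clo cells after IMQ stood above Ly6Chi cells after IMQ, and those above Ly6Chi cells after Sham cream, while the genotypes overlapped within each level. *Fcgrt* and *Fcer1g* had a single step, with both Ly6Clo groups above the 4 Ly6Chi groups. *Fcgr2b* had a step between both Sham groups and the 4 IMQ groups. For *Fcgr1* and *Fcgr3*, each group overlapped its neighbour in the order of the means.

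Levels of different genes were compared per kb of exon length. *Fcer1g*, the shared signalling chain, was the most abundant per kb in every group, from 6717 ± 840 (SD, n = 4) normalized counts per kb in wt Ly6Chi cells after Sham cream to 12798 ± 2240 (SD, n = 4) in wt Ly6Clo cells. Among the 4 *Fcgr* genes, *Fcgr3* held most of the summed counts per kb in Ly6Chi cells, with a share of 59.0% ± 4.59 (SD, n = 4) in wt cells after Sham cream and 61.3% ± 4.62 after IMQ. *Fcgr4* held 3.58% ± 0.421 in wt Ly6Chi cells after Sham cream, 15.7% ± 3.17 after IMQ and 83.0% ± 3.44 (SD, n = 4 each) in wt Ly6Clo cells. In *N2ΔMy* cells its share was 3.60% ± 1.07, 12.6% ± 1.38 and 67.5% ± 1.26 (SD, n = 4 each) in the same order. *Fcgr1* held 2.80% ± 0.869 in wt Ly6Clo cells and 8.93% ± 1.46 in *N2ΔMy* Ly6Clo cells, and the libraries of both groups did not overlap. The exon length of *Fcgr2b* (5790 bases) joins the exons of all its transcripts. With the longest coding transcript of each of the 4 genes as length, which shortens *Fcgr2b* (to 3544 bases) and *Fcgr3*, the shares in wt Ly6Clo cells were 3.24% ± 0.387 for *Fcgr2b* in place of 2.08% ± 0.246, 14.9% ± 3.32 for *Fcgr3* in place of 12.1%, and 79.2% ± 3.85 for *Fcgr4*.

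**Figure D2:**
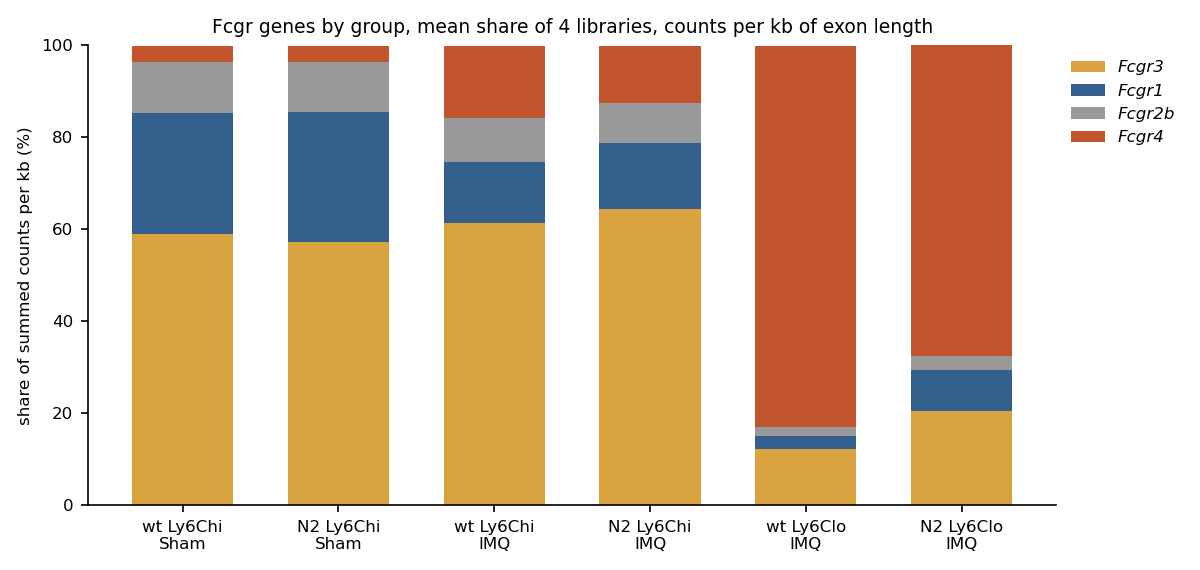
Mean share in percent (vertical axis) of Fcgr3, Fcgr1, Fcgr2b and Fcgr4 in the sum of their normalized counts per kb of exon length, for the 6 groups of 4 libraries. Fcgr3 makes up 57.2 to 64.4% in the Ly6Chi groups, and Fcgr4 makes up 83.0% in wt and 67.5% in N2ΔMy (labelled N2) Ly6Clo cells.

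The comparison of IMQ with Sham cream asked how Ly6Chi cells differ after Aldara and after Vaseline. These creams are different products, so imiquimod and the other contents of Aldara cannot be told apart. The high-affinity receptor gene *Fcgr1* fell and the low-level gene *Fcgr4* rose, in both genotypes. Genes were called if limma gave an adjusted p no higher than 0.05 and the log2 fold change was 0.6 or more in either direction. In wt cells 2 of the 6 members were called, 1 in each direction, where 9.49% of all genes tested were called. In *N2ΔMy* cells the same 2 members were called in the same directions, where 8.70% of all genes were called.

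Normalized counts of *Fcgr1* in wt Ly6Chi cells were 3134, 2368, 2465 and 2656 after Sham cream and 961, 1231, 1453 and 1164 after IMQ. All IMQ libraries lay below all Sham libraries. The log2 fold change was -1.15 (SE 0.13, limma adjusted p = 3.5e-04), and the two-sided exact permutation p was 0.0286, the smallest that 70 splits of 8 libraries allow. In *N2ΔMy* Ly6Chi cells *Fcgr1* was at 3413, 3183, 2311 and 3166 after Sham cream and at 1089, 1306, 2286 and 1482 after IMQ. The groups again did not overlap, but the lowest Sham library (2311) and the highest IMQ library (2286) lay close together. The log2 fold change was -1.01 (SE 0.21, limma adjusted p = 0.010, exact permutation p = 0.0286), with -1.47 in the first library series and -0.56 in the second. In wt cells the series gave -1.32 and -0.98. The call in *N2ΔMy* cells was lost in the second series alone (limma adjusted p = 0.163) and without the filter on low values (0.098).

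Normalized counts of *Fcgr4* in wt Ly6Chi cells were 208, 140, 170 and 191 after Sham cream and 412, 710, 643 and 1121 after IMQ. Every IMQ library was above every Sham library, with the lowest in replicate 1. In log2 units the rise was 1.94 (SE 0.26, limma adjusted p = 7.3e-04, exact permutation p = 0.0286). In *N2ΔMy* cells the values were 259, 145, 152 and 194 after Sham cream and 510, 618, 746 and 698 after IMQ. These groups were as clearly apart, with a difference of 1.80 in log2 units (SE 0.20, limma adjusted p = 3.4e-04, exact permutation p = 0.0286).

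The inhibitory receptor gene *Fcgr2b* was lower by less than the fold minimum. It was at 2553, 2523, 2288 and 2701 normalized counts in wt cells after Sham cream and at 1923, 2070, 1468 and 2052 after IMQ, groups that did not overlap. The log2 fold change was -0.43 (SE 0.11, limma adjusted p = 0.027) in wt and -0.41 (SE 0.10, limma adjusted p = 0.017) in *N2ΔMy* cells, where values went from 2875, 2450, 2578 and 2593 to 2024, 1887, 1735 and 2257. *Fcgr3*, *Fcer1g* and *Fcgrt* were not called in either genotype. The 95% intervals of their log2 fold changes were -0.56 to 0.34, -0.28 to 0.42 and -0.68 to 0.01 in wt cells, and -0.31 to 0.58, -0.15 to 0.55 and -0.47 to 0.18 in *N2ΔMy* cells. None of these intervals lay wholly beyond the fold minimum.

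Markers of other cells moved in the same comparison. The neutrophil list summed to 6617 to 7150 normalized counts in Sham and 6107 to 7476 in IMQ libraries of wt Ly6Chi cells, and to 6079 to 6580 and 7016 to 7296 in those of *N2ΔMy* cells, where it was higher after IMQ without overlap. Its defining genes *Ly6g*, *Camp*, *Ltf* and *Ngp* had at most 8 normalized counts in any of these libraries. Within that list *Mmp8*, a neutrophil collagenase, was at a mean of 1067 in wt cells after Sham cream and 2453 after IMQ, and at 1081 and 2804.5 in *N2ΔMy* cells. *Csf3r*, the G-CSF receptor gene and the most abundant of the list, moved the other way, with means of 5755 and 4211 in wt and 5209 and 4272 in *N2ΔMy* cells. The dendritic cell list summed to 823 to 1474 in wt Sham and 270 to 529 in wt IMQ libraries, and to 958 to 1686 and 296 to 410 in *N2ΔMy* libraries. The macrophage list summed to 3740 to 4538 after Sham cream and 2298 to 3106 after IMQ in wt cells, and to 3430 to 5005 and 3367 to 4293 in *N2ΔMy* cells, where the groups overlapped. Its genes went in different directions, with *Siglec1* at means of 2065 and 187 in wt and 1964 and 175 in *N2ΔMy* cells, and *Adgre1* at 1914 and 2549.5 in wt and 2217.5 and 3515 in *N2ΔMy* cells. The B cell list, beside *Fcgr2b*, summed to 2052 to 3226 in wt Sham and 1279 to 2525 in wt IMQ libraries, and to 2149 to 3872 and 1222 to 2764 in *N2ΔMy* libraries, nearly all of it *Ighm*, whereas *Ms4a1* was at 0 in all of them. The Ly6Clo list summed to 27254 to 31705 in wt Sham and 28215 to 41264 in wt IMQ libraries. In *N2ΔMy* libraries it summed to 18990 to 24193 and 19629 to 28066. Within it *Spn* was higher after IMQ without overlap, at means of 4765 and 8349 in wt and 4113 and 5752.5 in *N2ΔMy* cells. *Ace* was lower in mean, at 6931 and 6683 in wt and 3812.5 and 2736 in *N2ΔMy* cells. The part of these genes in the changes of *Fcgr1*, *Fcgr4* and *Fcgr2b* was not tested. In bulk libraries of sorted cells, fewer cells of a type and less RNA per cell cannot be told apart.

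**Figure D3:**
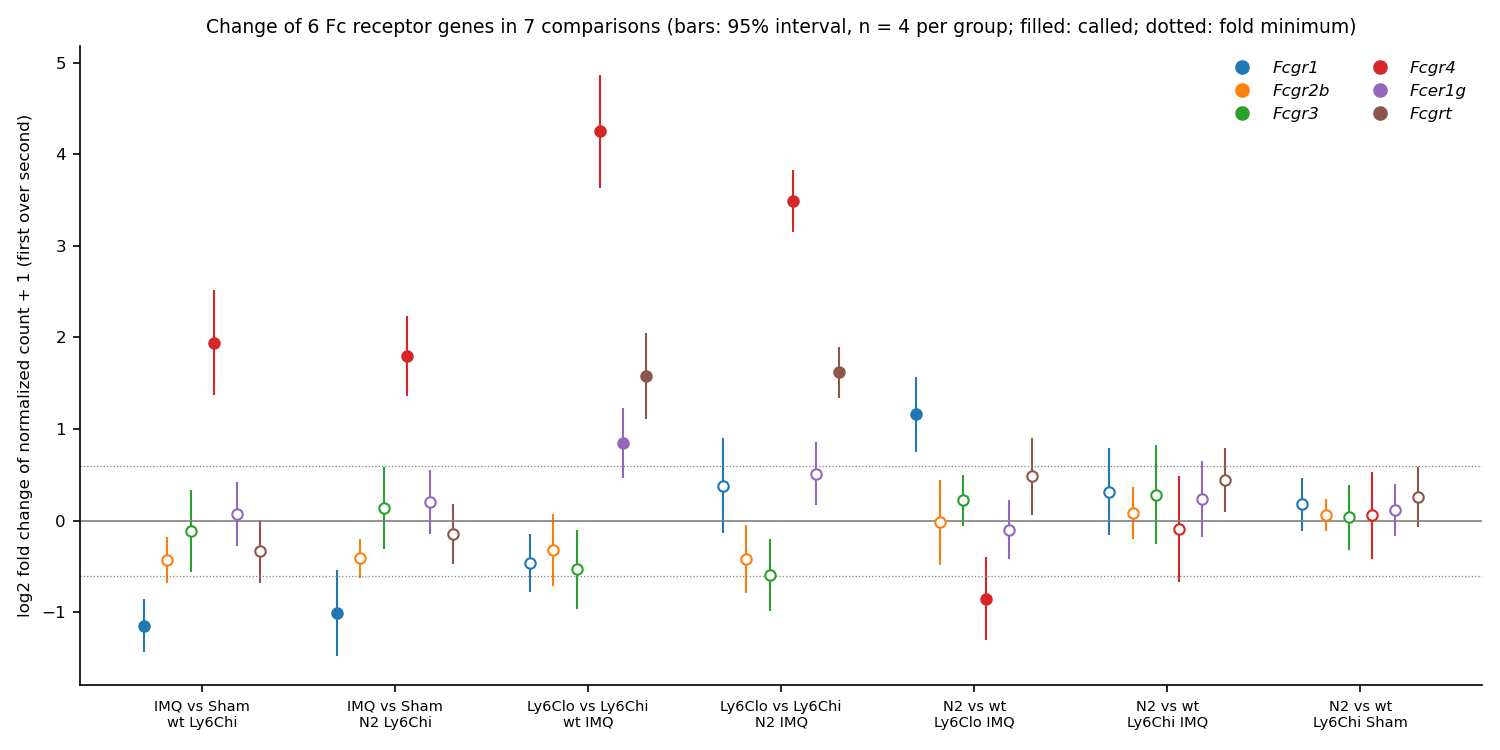
Log2 fold change of normalized count + 1 (vertical axis) of the 6 genes in 7 comparisons (horizontal axis, N2 stands for N2ΔMy), with 95% intervals over 4 libraries per group; filled points were called and dotted lines mark the fold minimum of 0.6. Fcgr4 has the largest changes, 4.25 and 3.49 between Ly6Clo and Ly6Chi cells, and in the comparison of genotypes only Ly6Clo cells have filled points.

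Ly6Clo cells were compared with Ly6Chi cells within IMQ-treated mice of each genotype. *Fcgr4* and *Fcgrt* were higher in Ly6Clo cells of both genotypes, and *Fcer1g* was called in wt cells. In wt cells 3 of 6 members were called, all higher in Ly6Clo cells, where 24.6% of all genes tested were called. In *N2ΔMy* cells 2 of 6 were called, both higher, where 17.4% of all genes were called. The sum of the macrophage list was also higher in Ly6Clo cells and did not overlap between subsets. It summed to 3968 to 6163 in Ly6Clo and 2298 to 3106 in Ly6Chi libraries of wt mice after IMQ, and to 7944 to 12016 and 3367 to 4293 in those of *N2ΔMy* mice. Most of it was *Adgre1*, at means of 5078 in Ly6Clo and 2549.5 in Ly6Chi cells of wt mice after IMQ and 7705 and 3515 in *N2ΔMy* mice. *Siglec1* went the other way, at 8 against 187 in wt and 133 against 175 in *N2ΔMy* mice, and *Mertk* was at 13.5 against 19.75 in wt and 250.5 against 33.2 in *N2ΔMy* mice. The part of the list in the changes of *Fcgr4*, *Fcgrt* and *Fcer1g* was not tested.

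*Fcgr4* was at 13858, 14302, 8473 and 16645 normalized counts in wt Ly6Clo cells, against the 412 to 1121 of wt Ly6Chi cells after IMQ. This was a difference of 4.25 in log2 units (SE 0.28, limma adjusted p = 1.7e-06, exact permutation p = 0.0286) and the largest of any member. In *N2ΔMy* Ly6Clo cells it was at 8009, 8731, 5784 and 6509, against 510 to 746 in *N2ΔMy* Ly6Chi cells, with a difference of 3.49 in log2 units (SE 0.15, limma adjusted p = 3.1e-07, exact permutation p = 0.0286). The subsets did not overlap in either genotype. The neutrophil list, whose cells also carry FcγRIV, summed to 2846 to 3925 in wt and 1855 to 2733 in *N2ΔMy* Ly6Clo libraries, below every Ly6Chi library after IMQ. Most of this sum was *Csf3r*, with means of 3139 in wt and 2263 in *N2ΔMy* Ly6Clo cells. The defining genes *Ltf* and *Ngp* were low but at higher means in Ly6Clo than in Ly6Chi cells after IMQ. *Ltf* was at 19.25 against 4 in wt and 21.25 against 4.5 in *N2ΔMy* mice, and *Ngp* at 14 against 4.25 and 16.75 against 4.5, with at most 53 and 43 in any library. *Ly6g* was at 0 in all these libraries.

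*Fcgrt*, the receptor of IgG recycling, was at 3297, 2965, 1894 and 3768 normalized counts in wt Ly6Clo and 941, 1080, 723 and 1191 in wt Ly6Chi cells after IMQ. The log2 fold change was 1.58 (SE 0.21, limma adjusted p = 2.0e-04, exact permutation p = 0.0286). In *N2ΔMy* mice it was at 4790, 4022, 3857 and 3589 in Ly6Clo and 1249, 1110, 1470 and 1469 in Ly6Chi cells, a difference of 1.62 in log2 units (SE 0.12, limma adjusted p = 5.4e-06, exact permutation p = 0.0286). The subsets did not overlap in either genotype. *B2m*, which encodes the light chain of this receptor, was at 24365.5 ± 8069 in wt Ly6Clo and 16171.5 ± 5841 (SD, n = 4 each) in wt Ly6Chi cells and was not called (limma adjusted p = 0.112, in the fit blocked by replicate number 3.3e-05 and called).

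*Fcer1g* was at 11290, 9496, 10057 and 13899 normalized counts in wt Ly6Clo and 5280, 4817, 7167 and 7819 in wt Ly6Chi cells after IMQ. The groups did not overlap, and the log2 fold change was 0.85 (SE 0.17, limma adjusted p = 0.0029, exact permutation p = 0.0286). In *N2ΔMy* mice the values were 12523, 8928, 10819 and 9413 in Ly6Clo and 6465, 5790, 8660 and 8534 in Ly6Chi cells. That difference of 0.51 in log2 units (SE 0.16, limma adjusted p = 0.035) stayed below the fold minimum, and it was 0.79 in the first library series, fitted alone and called (limma adjusted p = 0.011), and 0.23 in the second. The platelet list, whose cells also carry the γ chain, summed to 115 to 254 in wt Ly6Clo and 49 to 138 in wt Ly6Chi libraries after IMQ, with *Pf4* at most at 53. Its part in the values of *Fcer1g* was not tested.

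*Fcgr3*, *Fcgr2b* and *Fcgr1* were not called between the subsets. *Fcgr3* was at 2347, 2407, 2444 and 3132 normalized counts in wt Ly6Clo and 2771, 2963, 4268 and 5349 in wt Ly6Chi cells, a difference of -0.53 in log2 units (SE 0.20, limma adjusted p = 0.056). In *N2ΔMy* mice it was at 3124, 3200, 2436 and 3280 against 3542, 3591, 5498 and 5908, a difference of -0.59 in log2 units (SE 0.18, limma adjusted p = 0.034) just short of the fold minimum. The high Ly6Chi values were those of the second library series, where the log2 fold change was -0.79 in wt and -1.01 in *N2ΔMy* mice, against -0.27 and -0.17 in the first. In the second series fitted alone *Fcgr3* was called lower in both genotypes (limma adjusted p = 0.018 and 0.0011). With both series, *Fcgr3* was called lower in wt mice when Ly6Chi replicate 1 or 2 or Ly6Clo replicate 4 was left out (-0.67, -0.64 and -0.62), in *N2ΔMy* mice without Ly6Chi replicate 1 or 2 (-0.71 and -0.70), and under quantile normalization in both (-0.67 and -0.68). *Fcgr2b* had log2 fold changes of -0.32 (95% interval -0.72 to 0.07) and -0.42 (-0.79 to -0.05) in wt and *N2ΔMy* mice. In *N2ΔMy* mice *Fcgr2b* was at -0.11 in the first series and -0.73 in the second, where the fit of that series alone called it lower (limma adjusted p = 0.0044). *Fcgr1* had -0.46 (SE 0.14, limma adjusted p = 0.028) in wt, below the fold minimum, and 0.38 (SE 0.23, limma adjusted p = 0.269) in *N2ΔMy* mice. Its values differed between library series. In *N2ΔMy* mice the direction turned, with 1.00 in the first series, fitted alone and called (limma adjusted p = 0.0011), and -0.24 in the second. In wt mice it was -0.19 in the first and -0.73 in the second series, fitted alone and called (limma adjusted p = 0.023).

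Ly6Clo cells of both genotypes were compared after IMQ to see which members differ between *N2ΔMy* and wt mice. *Fcgr1* was higher and *Fcgr4* lower in *N2ΔMy* Ly6Clo cells. These were 2 of the 6 members, where 4.78% of all genes tested were called. *Fcgr1* was at 974, 937, 867 and 705 normalized counts in wt and 2263, 2515, 1782 and 1371 in *N2ΔMy* Ly6Clo cells. Every *N2ΔMy* library lay above every wt library. On the log2 scale the difference was 1.16 (SE 0.18, limma adjusted p = 0.0040, exact permutation p = 0.0286), with 1.32 in the first and 1.00 in the second library series. The level in *N2ΔMy* Ly6Clo cells overlapped that of both Ly6Chi groups of *N2ΔMy* mice.

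*Fcgr4* was at 13858, 14302, 8473 and 16645 normalized counts in wt and 8009, 8731, 5784 and 6509 in *N2ΔMy* Ly6Clo cells. Replicate 3 was the lowest of both groups, and the wt value of this replicate lay below the *N2ΔMy* value of replicate 2. The log2 fold change was -0.85 (SE 0.20, limma adjusted p = 0.033, exact permutation p = 0.0571), with -0.75 and -0.95 within the series. The call was lost in the second series fitted alone (limma adjusted p = 0.142), without the variance trend (0.090) and when any of 6 of the 8 libraries was left out (wt replicates 1, 2 and 4, *N2ΔMy* replicates 1, 3 and 4), with log2 fold changes from -0.91 to -0.73 and limma adjusted p from 0.060 to 0.099. It remained without wt replicate 3 or *N2ΔMy* replicate 2. Testing all genes without the filter on low values ended both calls, with a limma adjusted p of 0.076 for *Fcgr1* and 0.251 for *Fcgr4*.

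The other 4 members were not called between Ly6Clo cells of both genotypes. *Fcgrt* was at 2981 ± 796 in wt and 4064.5 ± 516 (SD, n = 4 each) normalized counts in *N2ΔMy* cells, a difference of 0.48 in log2 units (SE 0.19, limma adjusted p = 0.185). For *Fcer1g* the log2 fold change was -0.10 (95% interval -0.42 to 0.22), for *Fcgr2b* -0.02 (-0.48 to 0.45) and for *Fcgr3* 0.22 (-0.06 to 0.50). These intervals lie within the fold minimum of 0.6.

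Markers of other subsets moved with genotype in Ly6Clo cells, as given above for the Ly6Chi and Ly6Clo lists. The macrophage list summed to 3968 to 6163 in wt and 7944 to 12016 in *N2ΔMy* Ly6Clo libraries. Most of it was *Adgre1*, at means of 5078 in wt and 7705 in *N2ΔMy* cells, with overlapping libraries (3876 to 5977 and 5569 to 10202). The lower genes *C1qb*, *C1qc*, *C1qa*, *Mertk* and *Cd5l* were at means of 1023, 424, 249.8, 250.5 and 174 in *N2ΔMy* cells. In wt cells they were at 71.8, 23.8, 14.2, 13.5 and 12.8. *Siglec1* was at 133 in *N2ΔMy* and 8 in wt cells, and *Vsig4* was at 0 in every library. The dendritic cell list summed to 83 to 522 in wt and 206 to 1626 in *N2ΔMy* libraries. The neutrophil list, given above, was lower in *N2ΔMy* (1855 to 2733) than in wt Ly6Clo libraries (2846 to 3925) and did not overlap. Most of it was *Csf3r*, at means of 2263 in *N2ΔMy* and 3139 in wt cells. *Mmp8* went the other way, at 62.5 and 21.5. The low genes *Ltf*, *Ngp* and *Camp* were not lower, at 21.25, 16.75 and 3.5 in *N2ΔMy* and 19.25, 14 and 0.75 in wt cells. The part of these lists in the changes of *Fcgr1* and *Fcgr4* was not tested.

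In Ly6Chi cells 0 of the 6 members were called between genotypes. After IMQ, 0.0267% of all genes were called (3 of 11230, 679 at an unadjusted p under 0.05 in limma), and after Sham cream 0.0178% (2 genes, 585 at an unadjusted p under 0.05). Of the members, 1 had an unadjusted limma p under 0.05 after IMQ and 0 after Sham cream. This member was *Fcgrt* at 984 ± 202 in wt and 1324.5 ± 177 (SD, n = 4 each) normalized counts in *N2ΔMy* Ly6Chi cells after IMQ (limma adjusted p = 0.670). For *Fcgr1* the log2 fold change between genotypes was 0.18 (95% interval -0.12 to 0.47) after Sham cream and 0.32 (-0.16 to 0.79) after IMQ. For *Fcgr4* it was 0.06 (-0.42 to 0.54) and -0.09 (-0.67 to 0.49).

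Whether the difference between genotypes depended on subset or treatment was tested with interaction terms. Between subsets after IMQ, 0 members were called, where 1.03% of all genes were called. The interaction of *Fcgr1* was 0.84 on the log2 scale (95% interval 0.21 to 1.48, limma adjusted p = 0.323) and that of *Fcgr4* -0.76 (-1.51 to -0.01, limma adjusted p = 0.580), and these were the 2 members at an unadjusted p under 0.05. So the genotype effect on *Fcgr1* was called in Ly6Clo and not in Ly6Chi cells, but the difference of both effects was not. Within the first library series alone, the interaction of *Fcgr1* was 1.19 and called (limma adjusted p = 0.011), and in the second it was 0.50. Between treatments in Ly6Chi cells, limma called 0 members and 0% of all genes, with 177 genes and 0 members at an unadjusted p under 0.05.

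Activating receptor transcripts were also set against the inhibitory one as the log2 ratio of each activating gene to *Fcgr2b* within a library, which does not depend on the scaling of libraries. These ratios use normalized counts without a correction for length, so their sign does not tell which gene was more abundant, and only shifts between groups are read from them. The ratio of *Fcgr4* to *Fcgr2b* separated treatments and subsets. It was -3.83 ± 0.24 in wt Ly6Chi cells after Sham cream, -1.46 ± 0.58 after IMQ and 3.12 ± 0.18 (SD, n = 4 each) in wt Ly6Clo cells. In *N2ΔMy* cells it was -3.84 ± 0.29, -1.63 ± 0.32 and 2.29 ± 0.20 (SD, n = 4 each) in this order. The Ly6Clo groups did not overlap in this ratio, although their values of *Fcgr4* did: wt libraries lay between 2.94 and 3.36 and *N2ΔMy* libraries between 2.01 and 2.44, with a shift of -0.83 in the first and -0.84 in the second library series.

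The ratio of *Fcgr1* to *Fcgr2b* was -0.78 ± 0.41 in wt and 0.40 ± 0.24 (SD, n = 4 each) in *N2ΔMy* Ly6Clo cells, and libraries did not overlap (-1.20 to -0.24 and 0.18 to 0.61). It was lower after IMQ than after Sham cream in Ly6Chi cells, by a shift of -0.72 in wt and -0.60 in *N2ΔMy* mice, with overlapping libraries in both. This shift was -0.98 in the first and -0.46 in the second library series of wt mice, and -1.02 and -0.17 in those of *N2ΔMy* mice. The ratio of *Fcgr3* to *Fcgr2b* lay between 0.24 and 1.66 in all 24 libraries, and its groups overlapped in every comparison. In Ly6Chi cells its shift after IMQ was 0.32 in wt and 0.55 in *N2ΔMy* mice. By library series this shift was 0.06 and 0.58 in wt and 0.49 and 0.61 in *N2ΔMy* mice. No p is given for these ratios, because they combine members.

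**Figure D4:**
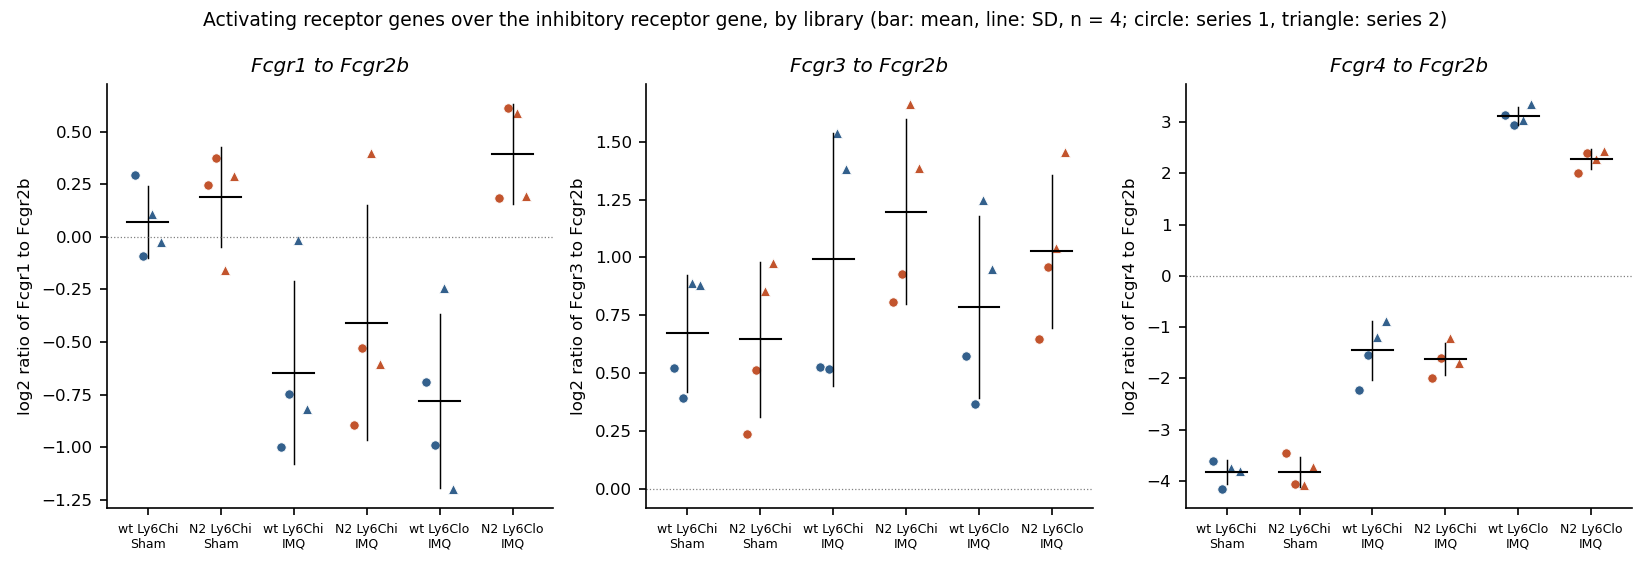
Log2 ratio of normalized count + 1 of Fcgr1, Fcgr3 and Fcgr4 to Fcgr2b (vertical axes) in each library of the 6 groups (horizontal axis), not corrected for gene length, wt in blue and N2ΔMy (labelled N2) in orange; bars are means and lines SDs of 4 libraries, circles are library series 1 and triangles series 2. The ratio of Fcgr4 climbs from -3.83 in wt Ly6Chi cells after Sham cream to 3.12 in wt Ly6Clo cells, and that of Fcgr1 separates the genotypes in Ly6Clo cells.

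Lists of linked genes were read alongside, namely 13 other immunoglobulin receptors and partners, 21 genes of ITAM signalling and 11 inhibitory phosphatases and adaptors. Of the other receptors, 9 did not reach the filter, among them *Fcer1a* and *Fcrla*, and *Fcrl1*, *Fcrl5*, *Trim21* and *B2m* were tested. Of the ITAM list 19 genes were tested and of the inhibitory list all 11. *B2m*, *Syk*, *Gab2*, *Vav3*, *Tyrobp*, *Pik3ap1*, *Ptpn6* and *Inpp5d* are named for their roles or values, chosen after their values were seen.

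Of the other receptors, *Fcrl5* and *Fcrl1*, members of the Fc receptor-like family best known from B cells, followed the subset. *Fcrl5* was at 2678 ± 867 normalized counts in wt Ly6Clo and 22.2 ± 13.4 (SD, n = 4 each) in wt Ly6Chi cells after IMQ, a difference of 6.96 in log2 units (SE 0.40, limma adjusted p = 7.8e-07), and of 6.78 (SE 0.56, limma adjusted p = 8.9e-06) in *N2ΔMy* mice. *Fcrl1* rose by 3.50 (SE 0.26, limma adjusted p = 3.1e-06) and 3.37 (SE 0.32, limma adjusted p = 2.5e-05). *Fcrl5* was the only tested receptor of this list called after IMQ in Ly6Chi cells, where Sham libraries had 0 or 1 and IMQ libraries 10 to 40 normalized counts in wt and 2 to 24 in *N2ΔMy* mice. At such low Sham values its log2 fold changes of 4.11 and 3.25 depend on the pseudocount. *Fcrl1* was lower in *N2ΔMy* than in wt Ly6Clo cells, at 317 ± 44.3 against 538 ± 68.9 (SD, n = 4 each; log2 fold change -0.76, SE 0.14, limma adjusted p = 0.011). *Fcrl5* had a similar value of -0.78 (SE 0.25) and was not called without the replicate block (limma adjusted p = 0.098, with the block 0.0015). Of the B cell list, *Ms4a1* had at most 3 and *Pax5* at most 8 normalized counts in any library. *Cd79a* was at a mean of 7.5 in wt Ly6Clo and 1.25 in wt Ly6Chi cells after IMQ, and at 8 and 0.5 in *N2ΔMy* mice. *Cd79b* was at means of 75.8 and 89 in wt and 107.5 and 92.8 in *N2ΔMy* mice, and *Ighm* at 1147 and 1669.5 in wt and 1268 and 1773.5 in *N2ΔMy* mice, in the same order. The part of B cells in the values of *Fcrl5* and *Fcrl1* was not tested. With the replicate block *Fcrl1* was also called after IMQ in Ly6Chi cells, with log2 fold changes of 1.08 in wt and 1.36 in *N2ΔMy* mice (limma adjusted p with the block 0.025 and 0.046, without it 0.060 and 0.095).

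Of the genes of ITAM signalling, those called between subsets were higher in Ly6Clo than in Ly6Chi cells, and most were not called. In wt mice 6 of 19 tested genes were called, all higher, where 24.6% of all genes were called (median log2 fold change 0.26, against -0.01 over all genes). In *N2ΔMy* mice 2 of 19 were called, *Pik3ap1* and *Vav3*, both higher, where 17.4% of all genes were called (median 0.26, against -0.01). *Pik3ap1*, an adaptor of PI3 kinase, rose by 2.52 (SE 0.17, limma adjusted p = 1.9e-06) and 2.37 (SE 0.17, limma adjusted p = 3.6e-06). *Gab2*, a docking adaptor, rose by 0.76 in wt mice, with 0.47 (limma adjusted p = 0.0058, below the fold minimum) in *N2ΔMy* mice. *Vav3*, a guanine nucleotide exchange factor, rose by 0.76 and 0.69, and *Syk* by 0.65 in wt mice, with 0.40 (limma adjusted p = 0.012, below the fold minimum) in *N2ΔMy* mice. *Tyrobp*, the other ITAM adaptor of myeloid cells, was at 7269 in wt Ly6Clo and 7002 in wt Ly6Chi cells and was not called. After IMQ in Ly6Chi cells, and between genotypes in Ly6Clo cells, limma called 0 of 19, where 9.49%, 8.70% and 4.78% of all genes were called (wt, *N2ΔMy* and Ly6Clo, respectively). In this order 5, 4 and 4 of the 19 had an unadjusted p under 0.05, against 3306, 3040 and 2192 of all 11230 genes. The median log2 fold changes of the list were 0.03, 0.03 and -0.12.

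Part of the inhibitory list was called between subsets as well. In wt mice 7 of 11 genes were called, all higher, where 24.6% of all genes were called (median 0.67), among them *Cblb*, an E3 ubiquitin ligase, by 1.73 (SE 0.10) and *Pag1*, the membrane adaptor of Csk, by 1.69 (SE 0.10; limma adjusted p = 7.8e-07 and 1.2e-06). *Ptpn6*, which encodes SHP-1, rose by 0.63, with 0.41 in *N2ΔMy* mice (limma adjusted p = 0.079, not called). In *N2ΔMy* mice 5 of 11 were called, all higher, where 17.4% of all genes were called (median 0.60), among them *Dok2* by 2.06 (SE 0.17, limma adjusted p = 7.1e-06) and *Cblb* by 1.39 (SE 0.13, limma adjusted p = 2.8e-05). *Cbl* had values of -0.14 and -0.18 in wt and *N2ΔMy* mice and was not called. After IMQ *Pag1* rose in Ly6Chi cells by 1.06 in wt and 0.91 in *N2ΔMy* mice, *Cblb* by 0.62 in wt mice, and *Inppl1*, which encodes the phosphatase SHIP2, fell by 0.70 in wt mice. In *N2ΔMy* Ly6Chi cells *Cblb* had 0.38 (limma adjusted p = 0.116) and *Inppl1* -0.54 (limma adjusted p = 0.031, below the fold minimum). The interaction of genotype and treatment was -0.23 for *Cblb* and 0.16 for *Inppl1*, and neither was called.

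Between genotypes in Ly6Clo cells, 3 of the 11 inhibitory genes were called, where 4.78% of all genes were called. *Dok2*, an adaptor that recruits RasGAP, was at 160 ± 18.8 in wt and 1245 ± 225 (SD, n = 4 each) normalized counts in *N2ΔMy* cells, a difference of 2.94 in log2 units (SE 0.15, limma adjusted p = 3.45e-06, exact permutation p = 0.0286), and the groups did not overlap. *Cblb* fell from 6366 ± 685 to 3894.5 ± 448 (log2 fold change -0.71, SE 0.11, limma adjusted p = 0.0039) and *Pag1* from 8871 ± 726 to 5125 ± 619 (SD, n = 4 each; log2 fold change -0.80, SE 0.11, limma adjusted p = 0.0020). In Ly6Chi cells after IMQ *Dok2* was at 159 ± 46.8 in wt and 298.5 ± 52.3 (SD, n = 4 each) in *N2ΔMy* cells and was called only with the replicate block (limma adjusted p = 0.467, with the block 0.0092). *Inpp5d*, which encodes SHIP1, the phosphatase through which FcγRIIB is known to signal, was not called in any comparison.

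**Figure D5:**
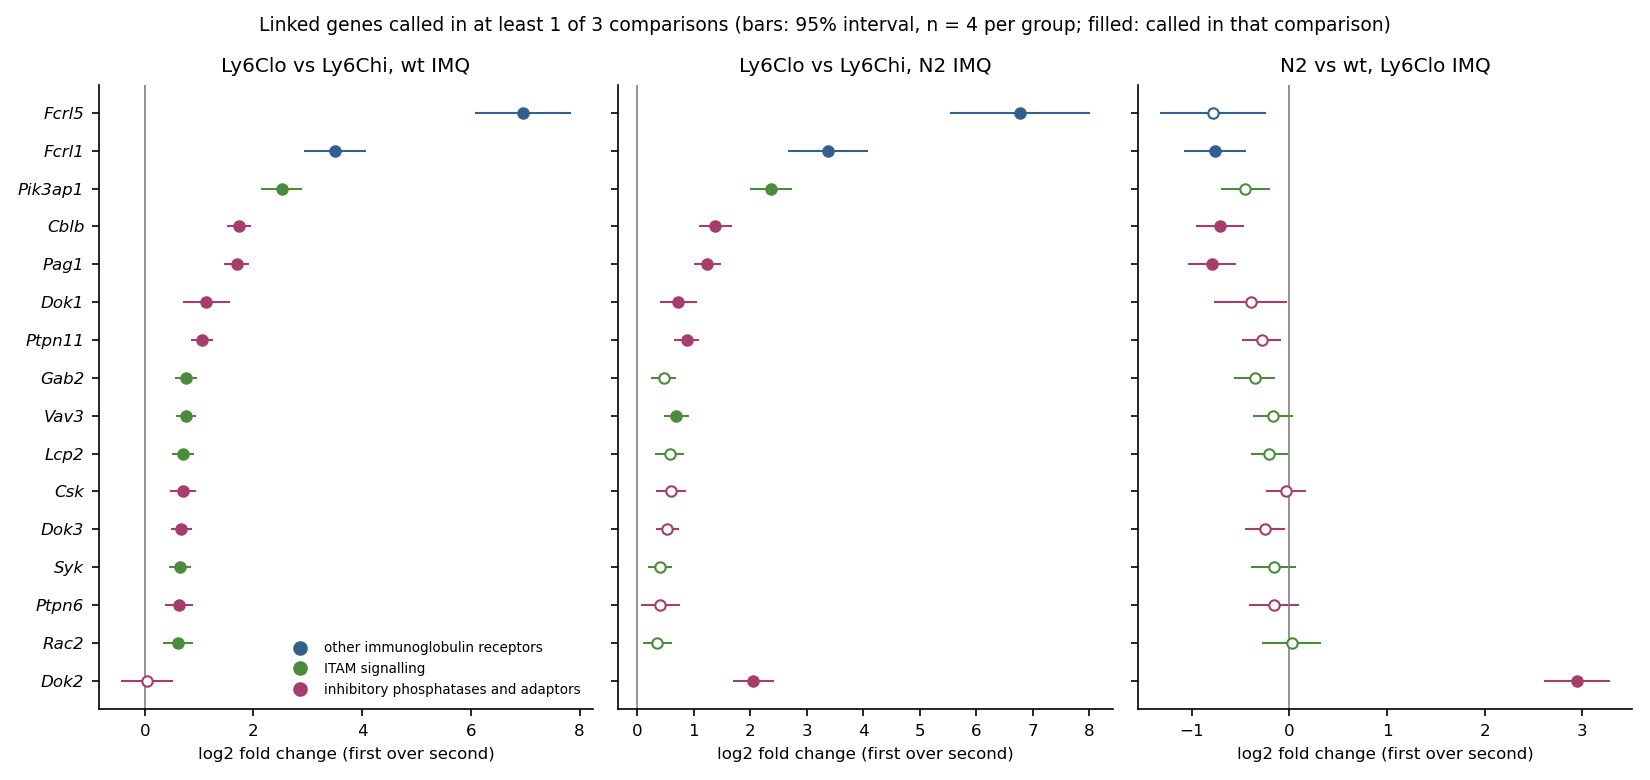
Log2 fold change (horizontal axes, first group over second, scales differ between panels) of the 16 linked genes called in at least 1 of 3 comparisons (vertical axis), with 95% intervals over 4 libraries per group; colours give the list and filled points were called in that comparison, N2 stands for N2ΔMy. Fcrl5 and Fcrl1 lead between subsets with 6.96 and 3.50 in wt mice, and Dok2 stands apart with 2.94 between genotypes in Ly6Clo cells.

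The genes whose pattern was most like that of each member were found by Pearson r of log2 values over the 24 libraries among 8369 tested genes with a mean of at least 100. The libraries fall into 6 groups, so r mostly describes how the group means line up. *Fcgr4* had the closest neighbours: *Rps6ka2* (r = 0.995), *Fcrl5* (0.989) and *Zdhhc6* (0.988), and r was 0.996, 0.989 and 0.988 with the means of the library series removed. *Fcgrt* was most like *Metrnl* (0.961), *Epb41l1* (0.956) and *Cd36* (0.949), and *Fcer1g* most like *Sash3* (0.950), *Hcls1* (0.939) and *Cyb5r3* (0.938). *Fcgr1* was most like *Ly9* (0.913), *Dapk1* (0.901) and *Inppl1* (0.900). *Fcgr2b* was most like *Ifi202b* (0.905), *Tgfb1* (0.888) and *Mpeg1* (0.880), and *Fcgr3* most like *Smap2* (0.915), *Hexa* (0.907) and *Fas* (0.893).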

How the data were processed

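RNA of FACS-sorted monocytes was sequenced as single reads of 75 bases in 24 libraries. Per the study's methods and the submitters' processing notes, the authors trimmed reads with Trim Galore 0.4.4, aligned them to GRCm38.p6 with STAR 2.5.3a and normalized gene counts with DESeq2. Use of strand in counting is not given in the sources used here. A further set of columns holds one comparison by the authors (mean, fold change and p-values) and was not used. The deposited values are normalized counts rounded to whole numbers and were treated as a score, since they are no longer raw counts. Library sums lay between 13273508 and 14651770, and 25137 of 53715 genes were at 0 in every library. Depth was inferred from the steps between values (9522452 to 19759572 reads per library) and limits the precision of low genes.

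Genes that reached 50 in 1 or more libraries were analysed as log2(value + 1) with limma 3.58.1 (R 4.3.3), with a variance trend and Benjamini-Hochberg adjustment over all 11230 genes. Each comparison was fitted on its own groups. Fold changes are on this log2 scale, which understates the change of low genes. A design for raw counts was also prepared and was not used, because the table holds none. Single genes were also tested by an exact two-sided permutation test over 70 splits. Scripts were tested on simulated data.

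Libraries with the same replicate number deviated together from their group means (every correlation at least 0.16, mean r per comparison 0.349 to 0.519), although the labels name no shared animal or day. The mean within a library series was -0.01 to 0.24. The fit with the replicate number as a block is therefore given where it changes a call.

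Alternatives covered normalization, filter, pseudocount, floor, trend, block, library series, one fit of all libraries and leaving out each library. The members and the linked lists were chosen with earlier results of these data known. Of the linked lists, genes called between genotypes in Ly6Clo cells and the 2 largest called changes per comparison were to be named. The 3 genes most like each member were to be named among tested genes with a mean of at least 100. Some genes of the marker and linked lists are not reported here. Protein sequences were not used here.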

Additional observations from a re-analysis of the deposited data

Results flagged for a closer look

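*Fcgr3* in wt Ly6Clo cells had 1 library apart from the others: replicate 4 was at 3132 normalized counts, against 2347, 2407 and 2444. It was the only one of 36 groups of member values whose extreme library passed Dixon's 95% limit, and 0 of 18 groups of ratios did. Chance flags about 1 in 20 groups. Without this library the log2 fold change of *Fcgr3* between wt Ly6Clo and Ly6Chi cells was -0.62 and called (limma adjusted p = 0.044), against -0.53 with it.

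The genotype difference of *Dok2* differed between subsets by the interaction test, with 2.01 on the log2 scale (SE 0.28, limma adjusted p = 8.3e-04). It was 2.94 in Ly6Clo and 0.93 in Ly6Chi cells after IMQ, and the interaction was 2.38 in the first and 1.63 in the second library series.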

How the results depend on the processing

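No member called in the report changed direction under an alternative. The number of members called between *N2ΔMy* and wt Ly6Clo cells, 2 in the report, was 0 without the filter on low values, 1 without the variance trend and 1 in the second library series alone. Leaving out single libraries gave 1 to 2. After IMQ in *N2ΔMy* Ly6Chi cells it was 1 in place of 2 without the filter and 1 in the second series alone. Between subsets it was 5 in the second series alone in place of 3 in wt mice, and 4 in either series alone in place of 2 in *N2ΔMy* mice, and leaving out single libraries gave 3 to 4 and 2 to 3. The interaction of genotype and subset had 1 call (*Fcgr1*) in the first series alone in place of 0. A single series has 2 libraries per group. The cause of these changes was not tested. With the replicate number as a block, 2 members were called between Ly6Clo cells of both genotypes, as without it, and the block changed no call of a member in any comparison. It moved the count of all genes called from 537 to 939 there, from 116 to 271 for the interaction with subset and from 3 to 54 in Ly6Chi cells after IMQ. Of the values of single members under alternatives other than leaving out a library, 616 kept their direction and side of the threshold, 9 gained and 6 lost the call, and 17 changed direction without a call in either setting. *Fcgr1* between subsets in *N2ΔMy* mice, 0.38 in the report, was called at 1.00 in the first series alone and was -0.24 in the second. The other changes of direction, as log2 differences, were as follows. After IMQ in Ly6Chi cells, *Fcer1g* was at -0.089 in the first and *Fcgr3* at 0.059 in the second series in wt mice, and *Fcgrt* at 0.25 in the second in *N2ΔMy* mice. Between genotypes in Ly6Clo cells, *Fcgr2b* was at 0.0011 with equal library sums and 0.079 in the first series, and *Fcer1g* at 0.030 there. In Ly6Chi cells after IMQ, *Fcgr2b* was at -0.030 and *Fcgr4* at 0.054 in the first series, and after Sham cream *Fcgr3* at -0.018 in the first and *Fcgr4* at -0.069 in the second. The interaction with subset was 0.11 for *Fcgr2b* and 0.096 for *Fcgr3* in the first series and -0.18 for *Fcgrt* in the second, and that with treatment -0.14, -0.094 and -0.17 for *Fcgr1*, *Fcgr2b* and *Fcgrt* in the first. Leaving out single libraries changed the direction of the following values, none of them called in the report. After IMQ in wt Ly6Chi cells the ranges were *Fcer1g* -0.041 to 0.19 and *Fcgr3* -0.29 to 0.026. Between genotypes in Ly6Clo cells the ranges were *Fcer1g* -0.19 to 0.011 and *Fcgr2b* -0.20 to 0.091. In Ly6Chi cells after IMQ the ranges were *Fcgr2b* -0.034 to 0.14 and *Fcgr4* -0.33 to 0.15. In Ly6Chi cells after Sham cream the ranges were *Fcgr3* -0.070 to 0.14 and *Fcgr4* -0.11 to 0.17. For the interaction with subset the ranges were *Fcgr2b* -0.28 to 0.016, *Fcgr3* -0.24 to 0.075 and *Fcgrt* -0.16 to 0.18. For that with treatment the ranges were *Fcgr1* -0.069 to 0.29, *Fcgr2b* -0.095 to 0.079 and *Fcgr4* -0.39 to 0.095. The rescaled libraries moved the median of all genes by at most 0.03 on the log2 scale.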
